A study of Mus musculus with 6 samples.

Results

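The 2-oxoglutarate dioxygenases are iron enzymes that use oxygen and 2-oxoglutarate to hydroxylate or demethylate DNA, histones, RNA, collagen and other substrates. The 32 genes described here are the TET, JmjC, AlkB, collagen hydroxylase and phytanoyl-CoA hydroxylase members chosen by symbol, with the hydroxylases that act on HIF left out, and all 32 were present among the 35178 gene symbols of the count table. RNA came from Ter119-positive cells of the spleen. Ter119 marks the surface of red cell precursors and red cells. The tested mice were Nrf2 knockouts (KO, 3 libraries) and their controls were wild type for Nrf2 (WT, 3 libraries). Every mouse had sickle cell disease, was 2 to 3 months old and had a mixed B6;129P2 background. The labels name neither the sickle alleles nor the deleted part of Nfe2l2, the gene of Nrf2, and nothing in them ties a library to a single animal. Each p-value therefore sets a group difference against the spread between these libraries, an unknown part of which may be technical. KO replicates 1 and 2 differed from KO replicate 3 and from all WT libraries in reads of Xist and chromosome Y. This difference partly coincides with genotype in every comparison of all KO with all WT libraries, and the fit had no term for it.

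TET enzymes oxidise 5-methylcytosine in DNA. JmjC demethylases remove methyl groups from histone lysines, and AlkB enzymes remove alkyl groups from DNA and RNA. Collagen prolyl and lysyl hydroxylases modify collagen chains in the endoplasmic reticulum. The series title links Nrf2 to L-2-hydroxyglutarate, a metabolite that resembles 2-oxoglutarate and can inhibit enzymes of this class in vitro. Transcript levels carry no information on enzyme activity, and no product of these enzymes was measured here.

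Libraries held 16364199 to 21712608 reads. Nfe2l2 transcripts had 63.5, 76.8 and 68.6 CPM (counts per 1e6 reads, scaled by TMM) in KO libraries and 98.7, 71.0 and 75.2 CPM in WT libraries, and reads outside the deleted part check nothing about the genotype. Xist and chromosome Y reads split the KO group. Xist had 15.8 CPM on library totals in KO replicate 1 and 0.702 in KO replicate 2, whereas KO replicate 3 had 917 and WT libraries 784 to 1169. The sum over chromosome Y genes was 212 CPM for KO replicate 1, 271 for KO replicate 2, 4.64 for KO replicate 3 and at most 0.289 for WT libraries. Of 8 erythroid markers, Slc4a1, Alas2, Tfrc, Klf1, Gata1 and Epor were abundant, while the globins Hbb-bt and Hba-a1 had at most 10 reads in any library. The erythroid markers summed to 17320 to 19450 CPM in KO libraries and 26150 to 27420 CPM in WT libraries, without overlap. All 6 tested erythroid markers had a negative log2 change (median -0.72, range -0.80 to -0.17). None of them was called by edgeR, 5 had an unadjusted p under 0.05, and DESeq2 called these 5, Alas2, Epor, Klf1, Slc4a1 and Tfrc. Macrophage markers summed to 1302 to 1615 CPM in KO and 1177 to 1319 CPM in WT, with all 8 at a positive log2 change of 0.15 to 0.40. These macrophage sums overlapped between the groups, as did the sums of the other marker lists. No marker of those other lists was at 0 in any library. All 5 B cell markers (median log2 change -1.275) and all 5 megakaryocyte and platelet markers (median -0.60) were lower in KO. Of the neutrophil and of the fibroblast markers, 5 of 6 were lower. Higher in KO were 2 of 5 T cell, 3 of 4 endothelium and 2 of 3 progenitor markers. EdgeR called none of these markers, and DESeq2 called Gp9 of the platelet list. In bulk RNA, fewer cells of a type and less RNA per cell cannot be told apart.

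Transcripts of most of the dioxygenase genes were present in these libraries, over a wide range of levels. Bulk RNA does not assign them to a cell type. Read counts were divided by exon length to compare genes. The H3K4 demethylase gene Kdm5c stood highest, with 33.2 CPM per kilobase in KO and 44.8 in WT. It was followed by the RNA demethylase gene Alkbh5 (25.2 in KO and 28.3 in WT), Kdm6a (15.99 and 27.6) and Kdm4a (20.4 and 22.6). Phf2 and Kdm2a had 12.3 and 10.5 CPM per kilobase over all libraries. The lowest were Tet1 at 0.0708 and Kdm4d at 0.0769 CPM per kilobase, followed by P4ha2 (0.314), Tet2 (0.644) and Plod2 (0.885). The remaining 21 genes lay between Kdm5b at 1.96 and Phf8 at 8.204 CPM per kilobase. Kdm4d, with 25 reads in all libraries together, was the only one that did not pass the filter on low counts. It had 6, 10 and 0 reads in KO libraries and 2, 7 and 0 in WT libraries.

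**Figure D1:**
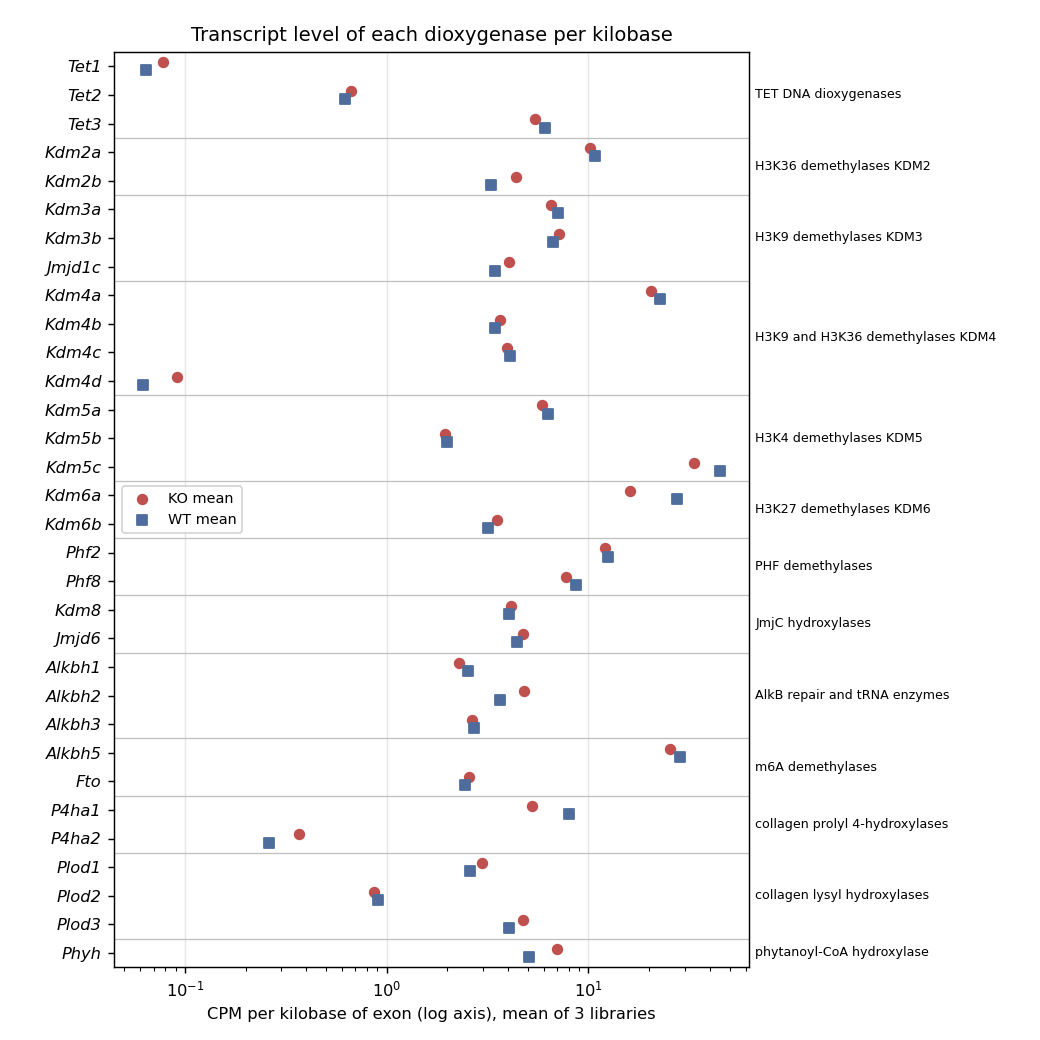
Mean level of each of the 32 genes in KO (circles) and WT (squares) in CPM per kilobase of exon on a log axis, ordered by enzyme family. Kdm5c is highest at 33.2 in KO and 44.8 in WT, and Tet1 and Kdm4d lie under 0.1 in both groups.

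Of the 31 genes tested, 0 differed between KO and WT at an adjusted p (edgeR quasi-likelihood test, Benjamini-Hochberg over 13721 genes) under 0.05, where 0.0219% of all tested genes did. By limma-voom the count was also 0, with 5 members (16.1%) at an unadjusted p under 0.05, beside 12.3% of all tested genes. DESeq2 called Kdm6a and Kdm5c, 2 of the 25 members for which it gave an adjusted p (8.0%), beside 4.73% of all genes with one. It gave none for Tet1, Kdm8, Alkbh2, Alkbh3, P4ha2 and Plod2. At an unadjusted p under 0.05 in edgeR, 3 members were lower in KO (Kdm6a, Kdm5c and P4ha1) and 2 higher (Kdm2b and Phyh). These are 9.68% and 6.45% of the members, beside 5.98% and 6.25% of all tested genes. The 2 higher members became 0 without KO replicate 2, and Kdm2b alone was left when KO replicate 1 or 3 or WT replicate 3 was taken out. With KO replicate 3 alone against WT, Kdm6a was lower and Plod1 higher at that p, 3.23% of the members in each direction, beside 4.35% of all tested genes lower and 3.83% higher. KO and WT libraries did not overlap for 4 members with lower and 3 with higher KO levels, 12.9% and 9.68%, beside 7.91% and 10.3% of all tested genes. Log2 changes of KO over WT had a median of -0.02 over the members, with 15 positive and 16 negative, and 0.02 over all tested genes. On library totals in place of TMM scaling these medians were 0.11 and 0.15, with 23 members positive.

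The precision differed between genes. For 19 of the 31 members (61.3%) the 95% interval of the change lay within 1.5-fold in both directions, beside 42% of all tested genes. Besides the 5 members with the lowest p, the 1.5-fold limit was inside the interval of Tet1, Tet2, Alkbh2, P4ha2, Plod1, Plod2 and Plod3. Tet1, with 120 reads in all, had an interval of -1.02 to 1.56 on the log2 scale, and Kdm4a, with 13697 reads, one of -0.36 to 0.07.

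**Figure D2:**
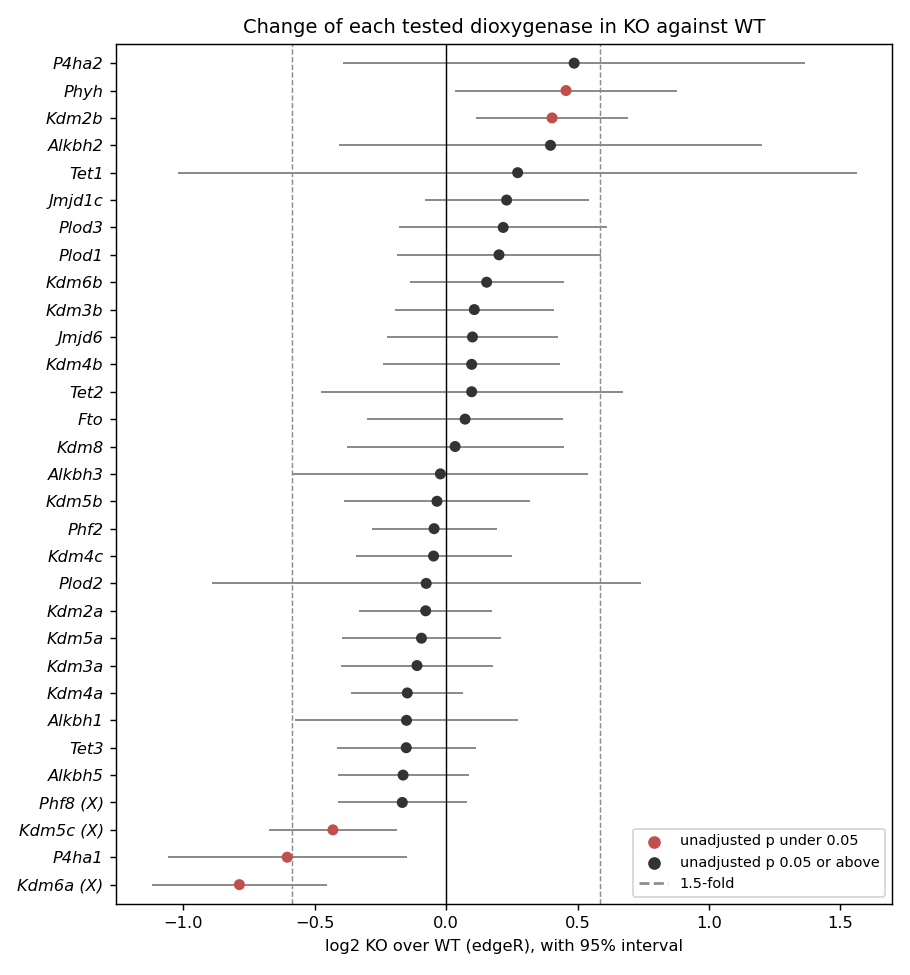
Log2 change of KO over WT for the 31 tested genes with its 95% interval derived from the edgeR F statistic, X-linked genes marked (X), and dashed lines at 1.5-fold. Kdm6a has the lowest estimate at -0.79 and P4ha2 the highest at 0.49, with the widest interval for Tet1.

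The promoter windows printed here are that of Kdm6a, the gene with the lowest p, and those of P4ha1 and Kdm2b, the 2 of the 5 members at an unadjusted p under 0.05 whose window holds the core of the antioxidant response element, the motif bound by Nrf2. Each runs from 250 bases before to 50 after a RefSeq start on GRCm38.p6. Kdm6a is at chrX:18162325-18162624 on the plus strand, P4ha1 at chr10:59323046-59323345 on the plus strand, and Kdm2b at chr5:122900301-122900600 on the minus strand. Capitals mark matches to TGACNNNGC on either strand.
Kdm6a: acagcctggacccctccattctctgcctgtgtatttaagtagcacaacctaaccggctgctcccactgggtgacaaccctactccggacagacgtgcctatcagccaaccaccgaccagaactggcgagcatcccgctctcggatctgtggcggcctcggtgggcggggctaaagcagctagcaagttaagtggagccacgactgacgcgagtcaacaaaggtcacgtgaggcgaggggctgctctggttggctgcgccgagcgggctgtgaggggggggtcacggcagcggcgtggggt
P4ha1: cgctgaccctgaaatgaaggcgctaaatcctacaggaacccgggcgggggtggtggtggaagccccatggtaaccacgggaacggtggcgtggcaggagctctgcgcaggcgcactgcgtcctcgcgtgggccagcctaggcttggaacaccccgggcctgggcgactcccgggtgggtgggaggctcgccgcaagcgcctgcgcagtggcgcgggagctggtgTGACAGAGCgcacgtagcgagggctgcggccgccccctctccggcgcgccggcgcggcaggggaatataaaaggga
Kdm2b: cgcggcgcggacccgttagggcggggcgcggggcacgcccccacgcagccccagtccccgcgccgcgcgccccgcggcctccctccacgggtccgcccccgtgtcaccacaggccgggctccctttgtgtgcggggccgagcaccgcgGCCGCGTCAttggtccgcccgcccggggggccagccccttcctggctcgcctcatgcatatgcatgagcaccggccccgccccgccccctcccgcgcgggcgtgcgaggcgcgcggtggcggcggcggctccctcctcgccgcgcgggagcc
The P4ha1 match begins 26 bases before the start, on the gene's strand. In Kdm2b the match lies on the other strand and begins 102 bases before the start, in 2 of 4 listed windows that overlap each other. The Kdm2b window printed was taken because it holds the match. Its start lies inside the annotated gene (chr5:122870665-122989823, minus strand), not at the upstream end of that gene. Which start these cells use was not tested. The Kdm6a window and those of Kdm5c and Phyh hold no match. Windows were listed for 26 of the 32 genes, and 8 of these (30.8%) held the core: Tet1, Kdm2b, Kdm4a, Kdm4c, Kdm4d, Phf2, Jmjd6 and P4ha1, beside 14% of all 27025 genes with a window. The hypoxia response core ACGTG, searched on both strands, was present in 10 of 26 (38.5%), P4ha1, P4ha2 and Kdm6a among them, beside 21.8% of all genes. For each motif a gene counted if any of its windows matched, so genes with more windows had more chances. The 27025 genes had 32851 windows, and the shares were not matched for window number. A match of letters does not show binding.

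The H3K27 demethylase gene Kdm6a had the lowest p of all members. Kdm6a, which encodes UTX, removes methyl groups from H3K27, and the gene escapes X inactivation in mice. It had 114, 118 and 170.0 CPM in KO libraries and 224, 250.1 and 219 CPM in WT libraries. Every KO library lay below every WT library, and KO replicate 3, the KO library with the most Xist reads, was the highest of the 3. The log2 change was -0.79 (SE 0.151, adjusted p = 0.103 by edgeR), or 0.580-fold. DESeq2 gave an adjusted p of 0.000128, and edgeR passed the threshold without KO replicate 3 (log2 -1.002, adjusted p = 0.0131) and without a filter on low counts (adjusted p = 9.06e-05). KO replicate 3 alone against WT gave a log2 change of -0.44, with an unadjusted p of 0.0172 and an adjusted p of 0.576 by edgeR. Its paralogue Kdm6b on chromosome 11, encoding JMJD3, had 23.8, 25.3 and 24.4 CPM in KO and 20.6, 22.3 and 23.2 CPM in WT. Here the KO libraries all lay above the WT libraries, by a log2 change of 0.15 (unadjusted p = 0.272 in edgeR).

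Kdm5c was the other gene that DESeq2 called. It encodes an H3K4 demethylase, is X-linked and also escapes X inactivation. It had 214.5, 246 and 248 CPM in KO libraries and 349.5, 299 and 307 CPM in WT libraries. The groups did not overlap, and KO replicate 3, the KO library with the most Xist reads, did not stand apart from KO replicate 2. The log2 change was -0.43 (SE 0.110, adjusted p = 0.165 by edgeR, 0.00752 by DESeq2), with a range of -0.48 to -0.36 when single libraries were left out. For KO replicate 3 alone it was -0.36, with an adjusted p of 0.619 by edgeR. The autosomal H3K4 demethylase genes had smaller differences. Kdm5a averaged 83.2 ± 14.1 CPM in KO and 88.8 ± 9.54 CPM in WT (SD, n = 3 each). Kdm5b averaged 32.1 ± 2.49 CPM in KO and 32.9 ± 6.88 CPM in WT (SD, n = 3 each).

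Both X-linked genes have a homologue on chromosome Y. The likeness of the copies in sequence was not computed, and sharing of reads between them was not tested. Kdm5d had 17.3, 30.7 and 0.286 CPM in the KO libraries and 0 reads in WT libraries. Uty, the homologue of Kdm6a, had 23.2, 30.0 and 0.115 CPM in the KO libraries and 0 reads in WT libraries. Neither homologue passed the filter on low counts, so neither was tested. With the homologue added, Kdm6a and Uty summed to 137, 148 and 170.1 CPM in KO and 224, 250.1 and 219 CPM in WT. The sums did not overlap, and their means gave a log2 ratio of -0.61 (two-sided exact permutation p = 0.1, the smallest that 3 against 3 can give). Kdm5c and Kdm5d summed to 232, 277 and 249 CPM in KO and 349.5, 299 and 307 CPM in WT, again without overlap, with a log2 ratio of -0.34 (two-sided exact permutation p = 0.1). The third X-linked gene, Phf8, encodes a demethylase of H3K9 and H4K20. It had 74.1, 69.1 and 72.8 CPM in KO and 71.4, 87.6 and 83.6 CPM in WT, with overlap and a log2 change of -0.17 (adjusted p = 0.6004 by edgeR). The split of the KO group by Xist and chromosome Y reads coincides with the Kdm6a levels, and its part in the group difference was not tested beyond these values.

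**Figure D3:**
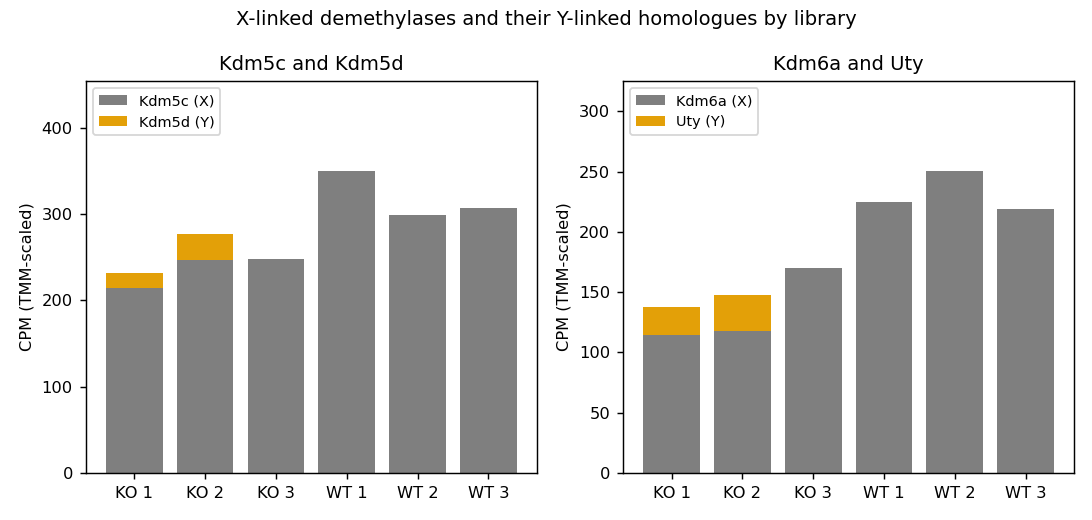
CPM of Kdm5c and Kdm6a (grey) with their chromosome Y homologues Kdm5d and Uty stacked on top, by library. The stacked sums of the KO libraries, 232 to 277 CPM for the first pair and 137 to 170.1 CPM for the second, lie below those of every WT library.

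Among the remaining histone demethylases, Kdm2b had the lowest p. Kdm2b encodes an H3K36 demethylase that recruits a Polycomb complex to CpG islands. It had 43.5, 54.0 and 44.7 CPM in KO libraries and 39.4, 34.9 and 33.2 CPM in WT libraries, all KO above all WT. The log2 change was 0.40 (SE 0.131, adjusted p = 0.260 by edgeR), and 0.29 to 0.48 without single libraries. Exons of Rnf34 on the opposite strand cover 5.77% of its exon length, and whether counting used strand is not given in the sources used here. Its relative Kdm2a, also an H3K36 demethylase gene, averaged 147 ± 7.94 CPM in KO and 156 ± 20.3 CPM in WT (SD, n = 3 each).

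The H3K9 demethylase genes showed no common direction. Jmjd1c had 64.0, 83.5 and 68.8 CPM in KO and 53.4, 71.8 and 59.3 CPM in WT, overlapping, with a log2 change of 0.23 (adjusted p = 0.561 by edgeR). Kdm3a, whose transcription is known to be raised by hypoxia, averaged 53.6 ± 4.64 CPM in KO and 57.9 ± 8.15 CPM in WT (SD, n = 3 each). Kdm3b averaged 101 ± 16.6 CPM in KO and 94.0 ± 11.6 CPM in WT (SD, n = 3 each). Kdm4a, the KDM4 gene with the highest level, had 122, 118 and 113 CPM in KO and 124, 137 and 132 CPM in WT. KO libraries lay below WT libraries, but by little (log2 change -0.15, SE 0.0970, adjusted p = 0.592 by edgeR). Kdm4b and Kdm4c had log2 changes of 0.10 and -0.05; Kdm4b had 16.5 to 19.3 CPM in KO libraries and 15.2 to 18.3 CPM in WT libraries, and Kdm4c 22.1 to 24.1 CPM in KO libraries and 22.3 to 25.5 CPM in WT libraries. Phf2, another H3K9 demethylase gene, averaged 66.5 ± 4.61 CPM in KO and 68.7 ± 4.34 CPM in WT (SD, n = 3 each).

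Tet3 carried most of the TET transcripts. It had 85.6, 93.8 and 93.4 CPM in KO libraries and 86.9, 115 and 101 CPM in WT libraries. The groups overlapped (log2 change -0.15, SE 0.121, adjusted p = 0.674 by edgeR). Tet2, often mutated in human blood cancers, had 7.14, 12.8 and 13.8 CPM in KO and 8.49, 12.4 and 10.7 CPM in WT, and its groups overlapped too. Tet1 had 0.900 to 1.66 CPM in KO libraries and 0.439 to 1.73 CPM in WT libraries. Summed over the family, KO libraries had 93.7, 108 and 109 CPM and WT libraries 96.2, 128 and 114 CPM.

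None of the AlkB family genes of RNA and DNA demethylases was called by edgeR, limma-voom or DESeq2, and DESeq2 gave no adjusted p for Alkbh2 and Alkbh3. Alkbh5, which removes m6A from RNA, had 159.9, 159.8 and 133 CPM in KO and 178, 177 and 152 CPM in WT (log2 change -0.16, SE 0.113, adjusted p = 0.613 by edgeR). Replicate 3 was the lowest library in both groups, and the groups overlapped. Fto, the other m6A demethylase gene, averaged 33.4 ± 3.95 CPM in KO and 31.8 ± 6.64 CPM in WT (SD, n = 3 each). The DNA repair enzymes Alkbh2 and Alkbh3 had 4.27 to 6.75 and 6.82 to 11.3 CPM in KO libraries and 2.07 to 5.19 and 7.59 to 10.3 CPM in WT libraries. The log2 change of Alkbh2 was 0.40, with a 95% interval of -0.41 to 1.20, and that of Alkbh3 was -0.02. Usp30 exons on the opposite strand cover 29.5% of the exon length of Alkbh2. Alkbh1, which acts on transfer RNA, averaged 15.0 ± 1.16 CPM in KO and 16.6 ± 3.98 CPM in WT (SD, n = 3 each). The JmjC hydroxylases Jmjd6 and Kdm8 had log2 changes of 0.10 and 0.03.

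Collagen prolyl 4-hydroxylase alpha subunit 1, P4ha1, had the lowest KO over WT ratio of the tested members outside the X chromosome. It had 25.7, 15.1 and 23.8 CPM in KO libraries and 27.7, 38.5 and 32.2 CPM in WT libraries. The groups did not overlap, though KO replicate 1 and WT replicate 1 were close. The log2 change was -0.61 (SE 0.206, adjusted p = 0.280 by edgeR, 0.0767 by DESeq2), and -0.78 to -0.41 without single libraries. Another catalytic subunit, P4ha2, had 2.59, 2.34 and 1.95 CPM in KO and 2.13, 1.57 and 1.17 CPM in WT, with overlap (log2 change 0.49, SE 0.399). Of the lysyl hydroxylase genes, Plod3 had 22.6, 18.6 and 22.7 CPM in KO and 19.9, 14.1 and 20.9 CPM in WT (log2 change 0.22, SE 0.180). Znhit1 exons on the opposite strand cover 11.7% of Plod3. Plod1 had 16.6, 18.7 and 25.04 CPM in KO and 17.5, 18.2 and 16.8 CPM in WT, and Plod2 had 3.43, 2.92 and 7.62 CPM in KO and 5.46, 4.20 and 5.003 CPM in WT. For Plod1 and Plod2 the highest library was KO replicate 3. That library also had the highest fibroblast marker sum of the KO group, 201 CPM while KO replicate 1 had 89.7, KO replicate 2 had 120 and WT libraries had 182, 247 and 135 CPM. Its endothelium marker sum was the highest of all 6 libraries, 307 CPM while KO replicate 1 had 221, KO replicate 2 had 198 and WT libraries had 235, 228 and 209 CPM. The 4 endothelium markers had a median log2 change of 0.16. Fibroblast markers (Col1a1, Col1a2, Col3a1, Pdgfra, Pdgfrb and Dcn) had a median log2 change of -0.49 with 5 of 6 negative. The part of either marker list in these values was not tested.

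Phyh, the peroxisomal enzyme that starts the breakdown of phytanic acid, had 12.5, 12.7 and 14.3 CPM in KO libraries and 11.3, 8.03 and 9.39 CPM in WT libraries. All KO libraries lay above all WT libraries. The log2 change was 0.46 (SE 0.192, adjusted p = 0.379 by edgeR), and 0.35 to 0.60 without single libraries.

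**Figure D4:**
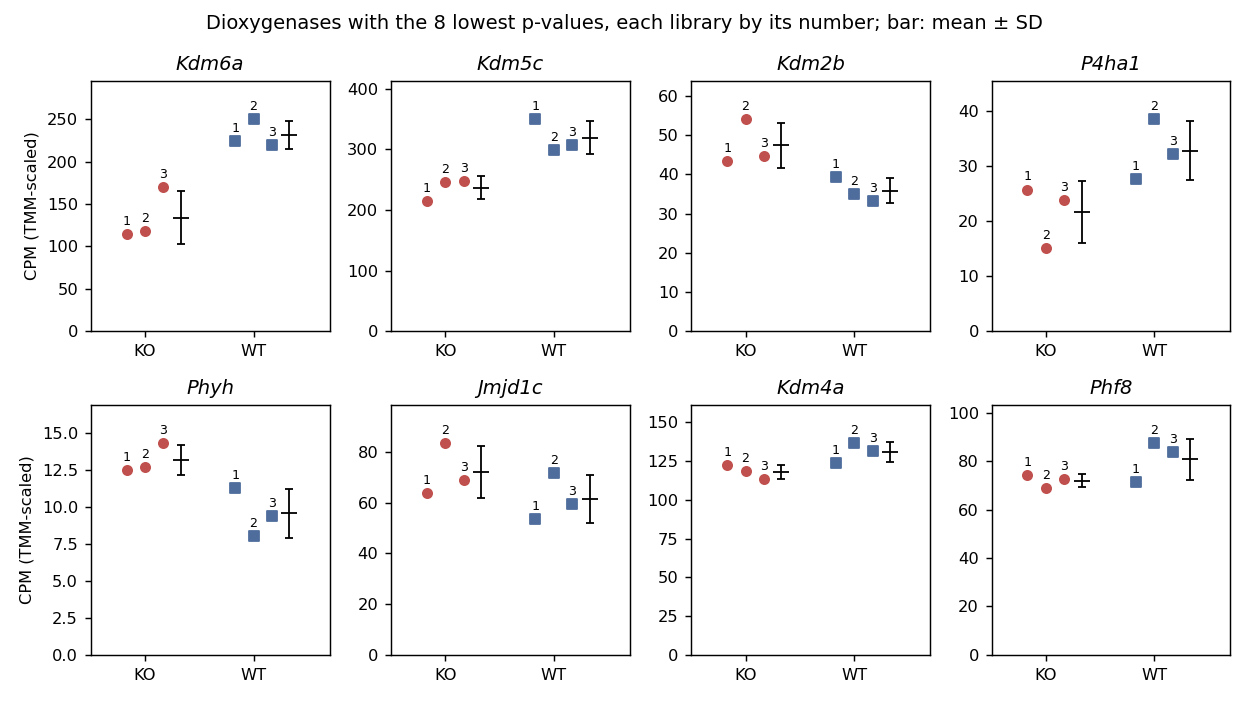
CPM in each library, numbered by replicate, for the 8 genes with the lowest p, with mean ± SD (n = 3) beside the points. For Kdm6a, Kdm5c, P4ha1 and Kdm4a all KO points lie below the WT points, for Kdm2b and Phyh above them, and for Jmjd1c and Phf8 the groups overlap.

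Other enzymes and partners of the same reactions gave no call by edgeR, limma-voom or DESeq2. Of 28 further 2-oxoglutarate dioxygenases in the table, such as the demethylase gene Kdm7a and the hydroxylase gene Mina, 19 were tested. In edgeR 0 were called at an adjusted p and 0 had an unadjusted p under 0.05 (median log2 change 0.05). By DESeq2, Kdm7a and Hspbap1 had an unadjusted p of 0.0403 and 0.0413, with edgeR log2 changes of -0.26 and -0.35. Mina had 9.78 ± 2.42 CPM in KO and 6.36 ± 2.06 CPM in WT (SD, n = 3 each). Of 11 genes of flavin-dependent histone demethylases and partners, 0 were called, and the deacetylase gene Hdac2 alone had an unadjusted p under 0.05 (log2 change 0.23). Among 19 partners and opponents of the KDM5 and KDM6 enzymes, 0 were called. Sin3b and the H3K27 methyltransferase gene Ezh1 had log2 changes of -0.26 and -0.29 and Ash2l one of 0.26, all at an unadjusted p under 0.05. Of 13 m6A writers and readers and of 12 tested TET partners and repair enzymes, 0 were called and 0 had an unadjusted p under 0.05 in edgeR. By limma-voom the thymine DNA glycosylase gene Tdg had an unadjusted p of 0.0262, with 51.96 ± 14.9 CPM in KO and 30.1 ± 15.95 CPM in WT (SD, n = 3 each), and by DESeq2 the DNA glycosylase gene Neil3 had one of 0.0394, with 118 ± 23.7 CPM in KO and 150.0 ± 29.4 CPM in WT (SD, n = 3 each). Of 21 tested collagen chains and processing enzymes, 0 were called by edgeR and 15 had a negative log2 change (median -0.14), with Col1a2 lower and Lox higher at an unadjusted p under 0.05. The collagen gene Col1a2 averaged 44.2 ± 12.8 CPM in KO and 67.6 ± 18.1 CPM in WT (SD, n = 3 each), while Lox, a cross-linking oxidase, averaged 12.1 ± 2.98 CPM in KO and 6.15 ± 0.235 CPM in WT (log2 change 0.98, SE 0.231, adjusted p = 0.144 by edgeR). Limma-voom called 0 of the 95 tested genes of these 6 lists, and DESeq2 called 0 of the 69 for which it gave an adjusted p. It gave none for the other 26, Lox and Mina among them, and its unadjusted p for Lox was 0.000266. The edgeR list counts at an unadjusted p stand beside 5.98% lower and 6.25% higher of all tested genes.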

How the data were processed

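RNA sequencing libraries of 3 KO and 3 WT samples were made from 1 ug of total RNA with an Illumina TruSeq version 2 kit, per the labels' protocols. The authors deposited raw counts of reads, in rows named by gene symbol. STAR 2.5, HTSeq, DESeq2 and the build mm10 appear in the submitters' processing notes, without their roles. Annotation and strand setting: not given in the sources used here. Of 35275 rows, 27 whose symbol had become a date (0.340% to 0.383% of reads) were left out, and 122 rows sharing 52 symbols were summed.

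KO was compared with WT in edgeR 4.0.16 under R 4.3.3 (filterByExpr, TMM, robust quasi-likelihood fit, no covariate), with adjustment over all 13721 genes. Intervals are 95%. Alternatives were other scalings and filters, DESeq2 1.42.0, limma-voom 3.58.1, single libraries left out, a replicate block and KO replicate 3 alone. On simulated data the edgeR calls had the right sign, but false calls exceeded the share that the adjusted p allows and many of the smaller changes were missed. Exon lengths and positions came from GENCODE M21 and promoters from RefSeq (GRCm38.p6). No 2 libraries were alike within sampling noise (chi-square per gene at least 22.1).

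The members, lists and tests were chosen with earlier results of these data known. Values in every library are given for the 12 tested members with the lowest p and for X-linked members and their homologues; others were added after their values were seen. Of related lists, up to 3 genes with the lowest p are named. 1 marker gene is not reported here.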

Additional observations from a re-analysis of the deposited data

How the results depend on the processing

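The count of all genes called, 3 by edgeR, was 33 on library totals, 8 with upper-quartile scaling, 10 with RLE size factors, 228 without a filter, 9 with at least 1 CPM in 3 libraries, 6 for KO replicate 3 alone, 385 by DESeq2, 0 by limma-voom (1681 at an unadjusted p under 0.05) and 0 to 14 without single libraries. The count of dioxygenase genes called, 0 as reported, was 1 without a filter, 2 by DESeq2 and 0 to 1 without single libraries. Dioxygenase genes at an unadjusted p under 0.05 and higher in KO numbered 1 with upper-quartile scaling, 1 for KO replicate 3 alone, 1 by DESeq2 and 0 to 2 without single libraries, and those lower in KO numbered 1 for KO replicate 3 alone and 2 to 3 without single libraries. Their median log2 change was 0.11 on library totals, where the median of all genes was 0.15, and -0.04 to 0.03 without single libraries. The causes were not tested. The sign held under each alternative for 17 of the 31 tested genes, among them the 12 with the lowest p, and turned for 14. On library totals the log2 change was 0.051 for Kdm2a, 0.023 for Kdm3a, 0.084 for Kdm4c, 0.036 for Kdm5a, 0.094 for Kdm5b, 0.086 for Phf2, 0.108 for Alkbh3 and 0.063 for Plod2. For KO replicate 3 alone it was -0.089 for Kdm3b, 0.018 for Kdm4c, 0.065 for Phf2, -0.091 for Kdm8 and 0.638 for Plod2, and with upper-quartile scaling -0.008 for Kdm8. Without single libraries it ranged over -0.071 to 0.919 for Tet1, -0.082 to 0.313 for Tet2, -0.16 to 0.029 for Kdm2a, -0.045 to 0.215 for Kdm3b, -0.092 to 0.008 for Kdm4c, -0.25 to 0 for Kdm5a, -0.162 to 0.139 for Kdm5b, -0.112 to 0.01 for Phf2, -0.019 to 0.096 for Kdm8, -0.312 to 0.028 for Alkbh1, -0.31 to 0.137 for Alkbh3, -0.085 to 0.202 for Fto and -0.631 to 0.157 for Plod2. Correlations of same-numbered KO and WT libraries were 0.10, 0.04 and 0.03, and those of differently numbered libraries ran from -0.08 to 0.035. These values do not settle whether the replicate numbers pair the libraries. With the replicate block 9 genes were called in all and 0 dioxygenase genes. The depth limits Tet1, P4ha2, Plod2, Alkbh2 and Kdm4d most.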
